A study of Mus musculus with 6 samples.

Results

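The genes described here encode CD antigens, C-type and other lectins, Fc receptors and related immune receptors of the cell surface. They were chosen by name, as the minus-strand genes whose symbol belongs to the Cd, Fcgr, Fcer, Clec, Ms4a, Siglec, Lilr, Pilr, Trem, Ly, Lair, Lgals and Mrc families, with Msr1, Ptprc, Tyrobp, Laptm5 and Coro1a, leaving out a pair of genes. This gave 103 of the 38483 genes listed. RNA was sequenced from 3 cultures of wild-type (WT) mouse embryonic fibroblasts (MEFs) and 3 cultures of MEFs haploinsufficient for Nipbl (Nipbl+/-), all of strain CD1 and at passage 3. Nipbl encodes a loader of cohesin, and its heterozygous loss models Cornelia de Lange syndrome. The embryos were taken between embryonic days 14 and 15, and limbs, brain and internal organs were removed before the remaining body was minced, so a culture can hold cells other than fibroblasts. The methods speak of embryos from one pregnant mouse, and which litter each culture came from is not given.

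Surface receptors of this kind let leukocytes sense antibodies, sugars and dying cells. Many activating receptors of macrophages and mast cells have no signalling tail of their own and pair with the adaptor chain encoded by Fcer1g, whose ITAM motif recruits the kinase Syk, while inhibitory receptors such as LAIR1 recruit phosphatases. Other genes with CD or Ly6 names are not restricted to immune cells: Cd44 and Cd9 are also abundant on fibroblasts, and Ly6a encodes Sca-1, also a marker of mesenchymal progenitors.

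No member passed the test. By the quasi-likelihood test of edgeR, with p-values adjusted over 9061 genes, 0 members were higher and 0 were lower at an adjusted p-value under 0.05, where 1.04% of all tested genes were higher and 0.916% lower. At an unadjusted p-value under 0.05, 15 of the 47 tested members were higher in Nipbl+/- MEFs (8.98% of all genes) and 5 were lower (7.95% of all genes). Among the tested members, 10 were higher in all 9 pairs of a Nipbl+/- and a WT culture (12% of all genes) and 6 were lower in all of them (10.8% of all genes). More liberal tests gave calls: edgeR's exact test called 5 members higher (2.41% of all genes) and 3 lower (2.35%), and DESeq2 called 3 higher (2.84%) and 3 lower (2.49%). The values below are therefore differences between cultures of which none is called by the quasi-likelihood test.

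Of the 103 members, 86 had at least 1 count in any culture, 57 had counts in every culture and 17 were at 0 throughout. A count of 0 allows up to 3 counts, or between 0.115 and 0.148 CPM (counts scaled by library size) in a culture. The 47 members tested are those with enough counts for the filter. Lair1, Ms4a2 and Fcgr1, for example, met it only with their higher Nipbl+/- counts. Such members enter the counts and medians given here. A further 95 genes with matching names lie on the plus strand, where all 19214 genes are listed at 0, so Tyrobp, Laptm5, Mrc1 and Mrc2 were not analysed here. Total counts ran from 20307454 to 25990783 per culture, and members took between 0.167% and 0.178% of them. Nipbl itself, on chromosome 15 of mm10 from 8291225 to 8444463, was at 128, 145 and 135 CPM in WT and at 101, 101 and 100.3 CPM in Nipbl+/- replicates 1 to 3, and fell by 0.43 on the log2 scale (adjusted p = 0.0213 by the same test). The extract protocol in the labels speaks of ES cells, whereas the sample labels give MEFs. The cell type was checked with markers. In WT, 15 minus-strand genes of a mesenchymal list summed to between 40435 and 48046 CPM, and in Nipbl+/- cultures to between 38812 and 44073 CPM. None of the 15 was at 0 in every culture, but Tcf21 had 2, 0 and 2 counts in WT and 3, 0 and 1 in Nipbl+/- cultures. By contrast, 5 pluripotency genes summed to at most 0.181 CPM. Xist counts exceeded Ddx3y counts in WT replicate 3 and Nipbl+/- replicates 1 and 2, and Ddx3y exceeded Xist in the other cultures, so the genotypes differ in their mix of sexes. With 3 cultures against 3, an exact permutation test (two-sided) cannot go below a p-value of 0.1.

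Levels were compared between genes as RPKM, the deposited value scaled by gene length. Cd9, a tetraspanin, led the members with a mean of 106.7 RPKM over the 6 cultures. The hyaluronan receptor gene Cd44 followed at 92.1 RPKM and Ly6a at 72.7 RPKM. The most abundant member assigned to the myeloid class was Cd302, an endocytic lectin, at 30.4 RPKM, while Cd68, a lysosomal macrophage marker, was at 4.49, Fcer1g at 3.93 and Msr1 at 3.54 RPKM. Not every mesenchymal member was above these: Clec11a was at 1.18 RPKM.

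Members were sorted by hand into classes by where they are best known to act, with earlier results of these data known. The myeloid class holds 42 members, of which 20 were tested. The median log2 fold change of those 20 was 0.56, beside a median of -0.0057 over all tested genes. The myeloid median was 0.39 where a CPM above 1 in 3 cultures was required. Of the 20, 17 were above 0, beside 4386 of all 9061 tested genes. The 5 tested mesenchymal members had a median of -0.12 and the 8 broadly expressed ones a median of -0.07. The 3 tested pan-leukocyte members had a median of 0.88, which was 0.47 without Nipbl+/- replicate 2. The medians were 0.48 for the 4 vascular or platelet members, -0.15 for the 3 lymphoid members and -0.09 for the 4 unassigned members. On a separate list of endothelial and platelet genes outside the members, the 5 tested had a median of -0.02. The lymphoid median turned to 0.62 with DESeq2, to 0.58 without a filter on low counts and to 0.52 without WT replicate 3. The mesenchymal and broad medians stayed below 0 in every setting, and the mesenchymal one was -0.30 without Nipbl+/- replicate 2 and -0.02 without replicate 3 of that genotype. In bulk cultures, fewer or more cells of a type and less or more RNA per cell cannot be told apart.

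**Figure D1:**
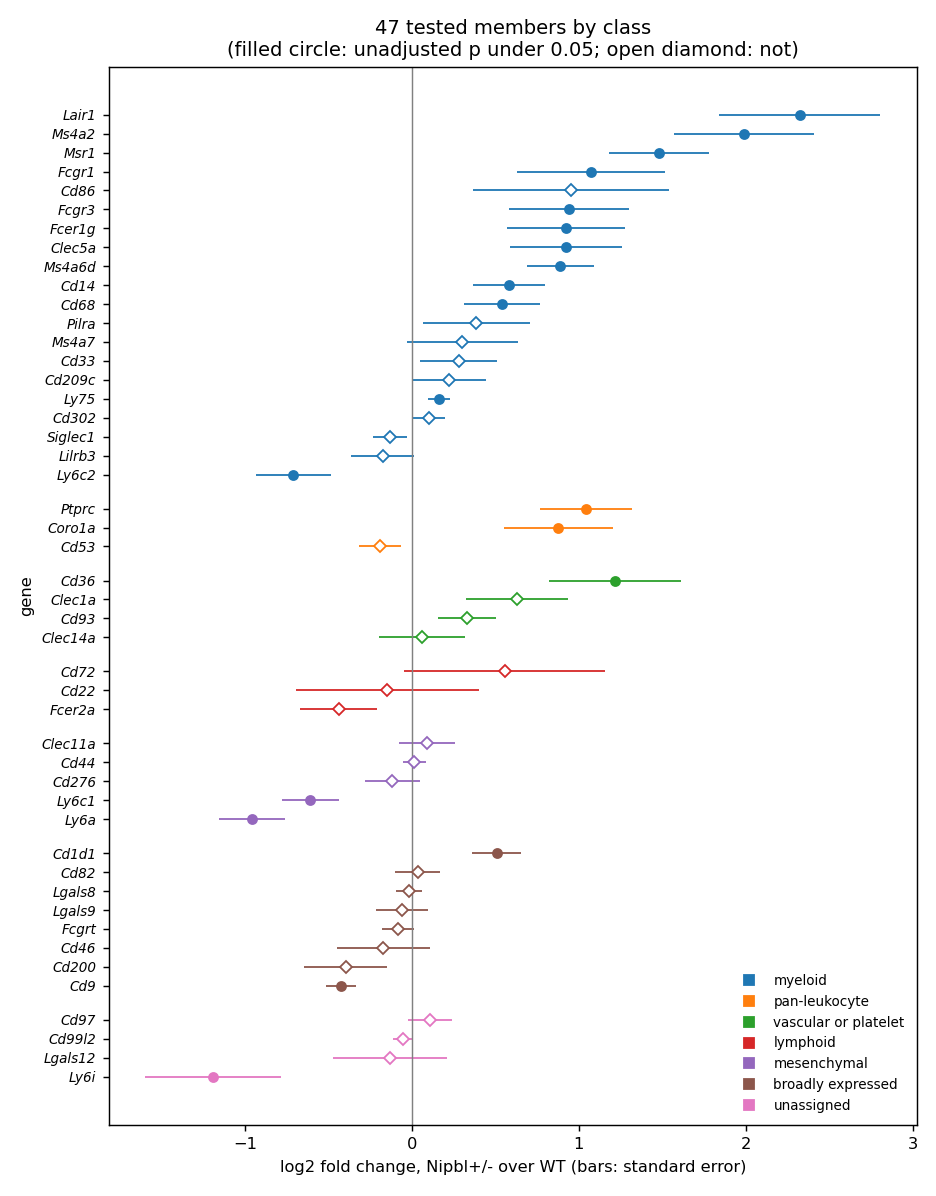
Log2 fold change of Nipbl+/- over WT (horizontal axis, with its standard error) for each of the 47 tested members, grouped by class; filled circles have an unadjusted p-value under 0.05. Myeloid members lie mostly to the right of 0, with Lair1 at 2.32, and the Ly6 genes lie to the left of it.

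Msr1 encodes the macrophage scavenger receptor A (ENSMUSG00000025044, chromosome 8 from 39581700 to 39642678). It was at 8.58, 5.92 and 8.68 CPM in WT replicates 1 to 3 and at 19.2, 31.7 and 13.4 CPM in Nipbl+/- replicates 1 to 3. The genotypes did not overlap, and Nipbl+/- replicate 2 was the highest culture. The log2 fold change was 1.48 ± 0.30 (standard error, SE; adjusted p = 0.0511, edgeR), and it was 1.08 without Nipbl+/- replicate 2.

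Lair1 encodes an inhibitory collagen receptor of leukocytes (ENSMUSG00000055541, chromosome 7 from 4007073 to 4063204). Its counts were 6, 5 and 6 in WT and 26, 53 and 14 in Nipbl+/- cultures, which corresponds to means of 0.258 ± 0.031 and 1.29 ± 0.686 CPM (SD, n = 3). All Nipbl+/- cultures were above all WT cultures, with few reads behind each WT value. The log2 fold change was 2.32 ± 0.48 (SE; adjusted p = 0.0536), the largest of the tested members. Lair1 passed the low-count filter only through its Nipbl+/- cultures, so this rank depends on the group where it is high.

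Ms4a2 encodes the beta chain of the high-affinity IgE receptor, known from mast cells and basophils (ENSMUSG00000024680, chromosome 19 from 11616957 to 11623719). It was at 0.635, 0.534 and 0.278 CPM in WT and at 1.40, 1.49 and 2.96 CPM in Nipbl+/- cultures, a log2 fold change of 1.99 ± 0.42 (SE; adjusted p = 0.0559). Here Nipbl+/- replicate 3 was the highest culture, unlike for the macrophage genes. Of 8 minus-strand genes on a mast cell list, 2 were at 0 in every culture. They were Fcer1a, which encodes the IgE-binding chain of the same receptor, and Cpa3, a mast cell protease gene. Others on the list had reads: Cma1 had 4, 7 and 8 counts in WT and 4, 9 and 5 in Nipbl+/- cultures. Mcpt4 and Hdc had between 1 and 12 counts in every culture. Srgn had 20, 3 and 27 counts in WT and 33, 64 and 31 in Nipbl+/- cultures, a log2 fold change of 1.25 (adjusted p = 0.29, edgeR). It passed the low-count filter only with its Nipbl+/- counts, and the other tested gene of the list was Ms4a2 itself. Ms4a6d, a neighbour of the same family, was at 2.04, 1.47 and 1.76 CPM in WT and at 3.38, 3.55 and 2.82 CPM in Nipbl+/- cultures (log2 fold change 0.89, adjusted p = 0.0661).

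Ptprc encodes CD45, the phosphatase that marks nearly all leukocytes (ENSMUSG00000026395, chromosome 1 from 138062861 to 138175706). It was at 3.81, 3.03 and 4.83 CPM in WT and at 6.36, 11.4 and 6.21 CPM in Nipbl+/- cultures. The groups did not overlap, and the log2 fold change was 1.04 ± 0.28 (SE; adjusted p = 0.10), and 0.69 without Nipbl+/- replicate 2. Coro1a, an actin regulator of leukocytes, showed a log2 fold change of 0.88 with overlapping groups (0.47 without that culture), while Cd53, a leukocyte tetraspanin, was at -0.19. Cd52, a lymphocyte and monocyte antigen with too few reads to be tested, had 8, 5 and 4 counts in WT and 14, 34 and 3 in Nipbl+/- cultures, so that replicate 2 carried the sum and replicate 3 was below every WT culture.

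Of the Fc receptor genes of the myeloid class, Fcer1g, Fcgr3 and Fcgr1 were higher on average with overlapping groups. Fcer1g was at 2.18, 2.18 and 2.41 CPM in WT and at 4.01, 6.50 and 2.20 CPM in Nipbl+/- cultures, and Nipbl+/- replicate 3 lay within the WT range. Its log2 fold change of 0.92 (adjusted p = 0.242) was 0.46 without Nipbl+/- replicate 2. Fcgr3, an activating IgG receptor, showed a log2 fold change of 0.94 (adjusted p = 0.242), and Fcgr1, the high-affinity IgG receptor, 1.07 (adjusted p = 0.276). Without Nipbl+/- replicate 2 these were 0.53 and 0.57. Clec5a, a lectin receptor of monocytes, was higher in all Nipbl+/- cultures (log2 fold change 0.92, adjusted p = 0.219), as was Cd14, the lipopolysaccharide co-receptor (0.58, adjusted p = 0.225). Cd68 was at 0.54 with overlapping groups (adjusted p = 0.285). Without Nipbl+/- replicate 2, Clec5a was at 0.46 and Cd68 at 0.33.

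**Figure D2:**
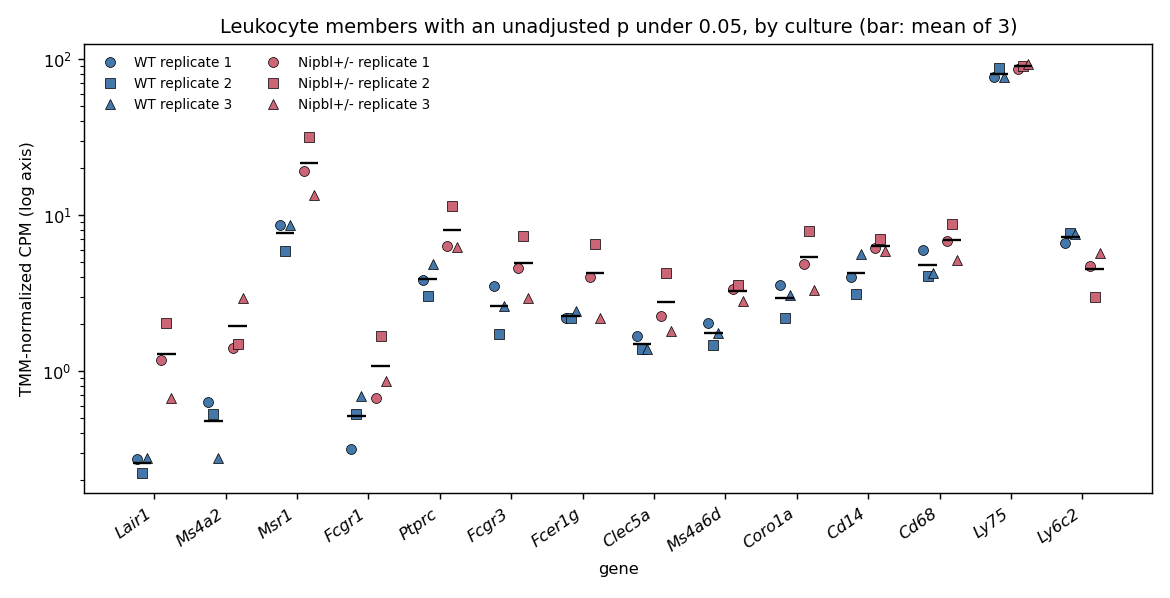
TMM-normalized CPM (log axis) in each culture for the myeloid and pan-leukocyte members with an unadjusted p-value under 0.05; the bar is the mean of 3 cultures. Nipbl+/- replicate 2 is the highest culture for Msr1 (31.7 CPM), Ptprc (11.4 CPM) and most others, and Ly6c2 goes the other way.

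Of the other tested myeloid members, Cd86, a costimulatory ligand, was at 0.95 on the log2 scale with overlapping groups (adjusted p = 0.459), and at 0.28 without Nipbl+/- replicate 2. Siglec1, the sialoadhesin gene of macrophages, was between 11.5 and 12.6 CPM in WT and between 10.2 and 11.7 CPM in Nipbl+/- cultures, and its log2 fold change was -0.13. Cd302 was at 0.10, Lilrb3 at -0.18, Cd209c at 0.22, Cd33 at 0.28, Ms4a7 at 0.30 and Pilra at 0.39 on the same scale, none with an unadjusted p-value under 0.05. Without Nipbl+/- replicate 2, Ms4a7 was at -0.02. The value of Pilra is uncertain, as 15.15% of its exonic bases also belong to Zcwpw1 on the other strand. Ly75, a dendritic cell lectin gene that other cells also express, had an unadjusted p-value of 0.0348 at a log2 fold change of only 0.16. Nipbl+/- replicate 2 was the highest of the 6 cultures for 14 of the 20 tested myeloid members, beside 1418 of all 9061 tested genes. The class median was 0.30 without that culture.

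**Figure D3:**
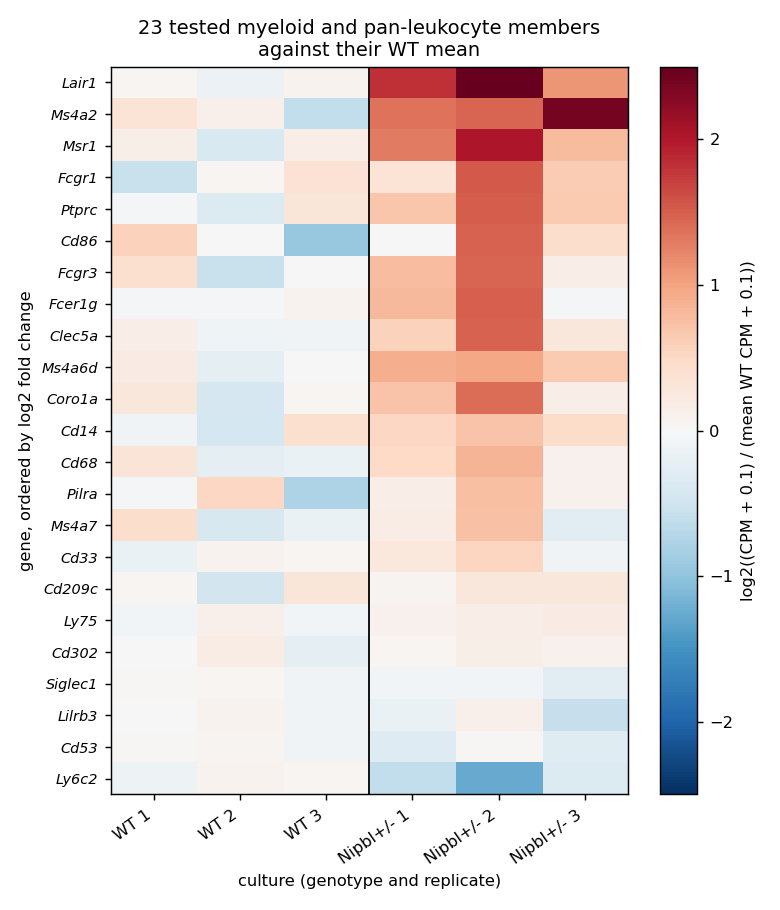
Each culture's log2 ratio to the mean of the WT cultures, with 0.1 CPM added, for the 23 tested myeloid and pan-leukocyte members, ordered by log2 fold change. The column of Nipbl+/- replicate 2 holds the highest value for 16 of the 23 members, beside 1418 of all 9061 tested genes.

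Macrophage markers outside the members were also higher on average. Of 20 tested genes on a macrophage list, 11 had an unadjusted p-value under 0.05 and a higher level in Nipbl+/- MEFs (8.98% of all genes), and 10 were higher in all 9 pairs (12% of all genes). Lyz2, the lysozyme gene of macrophages, was at 45.3, 33.4 and 33.9 CPM in WT and at 65.5, 112 and 52.9 CPM in Nipbl+/- cultures (log2 fold change 1.04, adjusted p = 0.0838). C1qb, a complement gene, showed a log2 fold change of 1.37 (adjusted p = 0.0559). The list summed to between 98.9 and 137 CPM in WT and between 155 and 256 CPM in Nipbl+/- cultures once Axl and Csf1, which fibroblasts express, were left out, a choice made after their values were seen. With both kept, the sums ran from 1478 to 1569 CPM in WT and from 1422 to 1524 CPM in Nipbl+/- cultures. Vsig4 was at 0 in every culture, and the part of macrophage content in the members' differences was not tested. Csf1, the growth factor of macrophages, was the only gene of the list past the threshold, and it fell by 0.50 on the log2 scale (adjusted p = 0.0188).

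Of the 20 tested genes that act downstream of ITAM receptors, 8 had an unadjusted p-value under 0.05 and were higher (8.98% of all genes), and 1 was lower (7.95% of all genes). The median log2 fold change of the 20 was only 0.09, beside -0.0057 over all tested genes, with 14 above 0 and 6 below. Among the 8, Btk and Card9 passed the low-count filter only with their Nipbl+/- counts. Cybb, which encodes the catalytic subunit of the phagocyte oxidase, showed a log2 fold change of 1.14 (adjusted p = 0.0729) and Lat2, an adaptor of Fc receptor signalling, 1.0 (adjusted p = 0.0661). The adaptor gene Dok1 was at -0.28 (adjusted p = 0.107), and 0 genes of the list passed the threshold. Lat, an adaptor gene of the list with too few reads to be tested, had 15, 9 and 8 counts in WT. In Nipbl+/- cultures it had 3, 2 and 4 counts.

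Lymphoid members were near the limit of detection. Of 20, 3 were tested and 4 were at 0 throughout, among them Cd3e, a chain of the T cell receptor complex, and Cd79b, a chain of the B cell receptor. Fcer2a, the low-affinity IgE receptor of B cells, showed a log2 fold change of -0.44 (adjusted p = 0.382). Fcer2a was lower in every Nipbl+/- culture. Cd72 and Cd22 are uncertain: 41.6% of the exonic bases of Cd72 also belong to Tesk1 on the other strand, and 9.50% of those of Cd22 to an antisense gene. Without strand, reads of such pairs cannot be told apart.

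Of the 5 members with an unadjusted p-value under 0.05 and a lower level, 4 were Ly6 genes and the other was Cd9. The Ly6 genes lie in a cluster on chromosome 15 from 74762056 to 75567255 that holds 13 genes of the minus strand, of which 7 are members. Ly6a (ENSMUSG00000075602, from 74994878 to 74997634) was at 71.6, 80.4 and 92.6 CPM in WT and at 36.4, 32.4 and 57.4 CPM in Nipbl+/- cultures. Every Nipbl+/- culture was below every WT culture, and the log2 fold change was -0.96 ± 0.20 (SE; adjusted p = 0.0520). Ly6c1, also a marker of fibroblast and endothelial subsets, was at 17.0, 16.4 and 19.4 CPM in WT and at 11.0, 8.98 and 14.8 CPM in Nipbl+/- cultures (log2 fold change -0.61, adjusted p = 0.117). Ly6c2, known from monocytes, showed a log2 fold change of -0.71 (adjusted p = 0.153) and Ly6i one of -1.19 (adjusted p = 0.186), both without overlap between the genotypes. Without Nipbl+/- replicate 3, Ly6i was at -1.86. For all 4 genes Nipbl+/- replicate 3 was the closest of its genotype to WT. The tested neighbours that are not members, Cyp11b1 and 2010109I03Rik, had log2 fold changes of -0.01 and -0.28. These Ly6 genes belong to the same family, and how alike their transcripts are was not analysed here. How any reads they share were counted is not given in the sources used here.

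**Figure D4:**
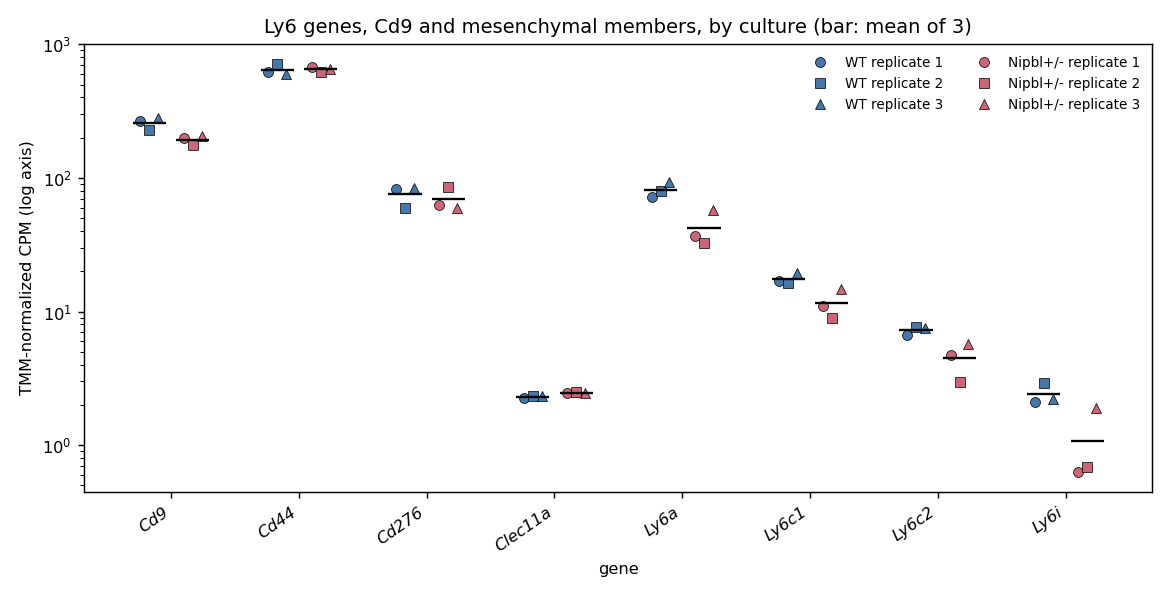
TMM-normalized CPM (log axis) in each culture for Cd9, the mesenchymal members and the Ly6 genes; the bar is the mean of 3 cultures. Ly6a, Ly6c1, Ly6c2, Ly6i and Cd9 are lower in every Nipbl+/- culture, while Cd44 and Cd276 overlap.

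Cd9 (ENSMUSG00000030342, chromosome 6 from 125460266 to 125494791) was at 268, 228 and 282 CPM in WT and at 199, 175 and 204 CPM in Nipbl+/- cultures. The groups did not overlap, and the log2 fold change was -0.43 ± 0.09 (SE; adjusted p = 0.0565). Cd44 was between 600 and 708 CPM in WT and between 623 and 672 CPM in Nipbl+/- cultures, a log2 fold change of 0.01. Cd276, an immune checkpoint ligand of stromal cells, was at -0.12. Exonic bases shared with a gene on the other strand make up 10.7% of Cd9 and 11.4% of Cd276, so these values carry the same uncertainty as that of Cd22. Clec11a, a growth factor gene of bone marrow stroma, was at 0.09 on the same scale, although its Nipbl+/- cultures were all above its WT cultures. Of the broadly expressed members, Cd1d1, which presents lipids to natural killer T cells, was higher in all Nipbl+/- cultures (log2 fold change 0.51, adjusted p = 0.126). Cd36, a fatty acid and thrombospondin receptor of platelets, endothelium and macrophages, was at 1.04, 0.712 and 2.18 CPM in WT and at 3.07, 3.86 and 2.15 CPM in Nipbl+/- cultures (log2 fold change 1.22, adjusted p = 0.165), so that Nipbl+/- replicate 3 lay within the WT range.

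Of the other named members, none had an unadjusted p-value under 0.05. The galectin genes Lgals8, Lgals9 and Lgals12 were at -0.02, -0.06 and -0.13 on the log2 scale, the neonatal Fc receptor gene Fcgrt at -0.08 and Cd200, a ligand that restrains myeloid cells, at -0.40. The adhesion receptor gene Cd97 was at 0.11, with 23.8% of its exonic bases shared with Ddx39 on the other strand, and Cd99l2 was at -0.06. Of the vascular members, Clec1a was at 0.63 and higher in every Nipbl+/- culture, Cd93 at 0.33 and Clec14a at 0.06. The 39 members with counts but too few for the test summed to 229 counts in WT and 316 in Nipbl+/- cultures, with no single count above 34.

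The mix of sexes was checked by comparing genotypes within the cultures with more Xist and within those with more Ddx3y. The Xist comparison set Nipbl+/- replicates 1 and 2 against WT replicate 3. The Ddx3y comparison set Nipbl+/- replicate 3 against WT replicates 1 and 2. Of the 20 tested myeloid members, 18 were above 0 among the Xist cultures and 14 among the Ddx3y cultures, with medians of 0.81 and 0.16. Values over all genes are not given for either comparison. Only the Xist comparison holds Nipbl+/- replicate 2, so sex and that culture cannot be told apart in the gap between these medians. The log2 ratio was 1.55 and 0.89 for Msr1, -1.43 and -0.40 for Ly6a, and -0.59 and -0.28 for Cd9 in the Xist and Ddx3y cultures. Each comparison rests on 3 cultures and has no test.

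Promoter sequence is shown for the 2 members with the largest log2 fold change above 0 and for the neighbouring Ly6c genes, picked after their values were seen, as the 250 bases before the RefSeq start on GRCm38.p6, 5′ to 3′ on the minus strand. Capitals mark GAGGAA or its reverse complement, letters found in sites of the macrophage factor PU.1. The stretches are chr7:4063205-4063454 for Lair1, chr19:11623720-11623969 for Ms4a2, chr15:75048838-75049087 for Ly6c1 and chr15:75111972-75112221 for Ly6c2.
Lair1: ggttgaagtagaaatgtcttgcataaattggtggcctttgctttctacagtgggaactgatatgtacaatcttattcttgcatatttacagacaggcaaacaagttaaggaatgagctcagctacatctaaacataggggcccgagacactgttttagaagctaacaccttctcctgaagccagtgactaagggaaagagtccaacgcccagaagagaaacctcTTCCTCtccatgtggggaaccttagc
Ms4a2: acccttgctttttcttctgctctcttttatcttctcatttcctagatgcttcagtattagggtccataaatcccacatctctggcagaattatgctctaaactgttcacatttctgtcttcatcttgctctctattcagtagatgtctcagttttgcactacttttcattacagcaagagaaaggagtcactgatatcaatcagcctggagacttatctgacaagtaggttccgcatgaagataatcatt
Ly6c1: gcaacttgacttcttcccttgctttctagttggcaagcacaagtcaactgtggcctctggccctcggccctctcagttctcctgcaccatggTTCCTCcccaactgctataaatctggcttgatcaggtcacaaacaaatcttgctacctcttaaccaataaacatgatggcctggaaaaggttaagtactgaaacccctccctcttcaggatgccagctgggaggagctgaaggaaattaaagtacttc
Ly6c2: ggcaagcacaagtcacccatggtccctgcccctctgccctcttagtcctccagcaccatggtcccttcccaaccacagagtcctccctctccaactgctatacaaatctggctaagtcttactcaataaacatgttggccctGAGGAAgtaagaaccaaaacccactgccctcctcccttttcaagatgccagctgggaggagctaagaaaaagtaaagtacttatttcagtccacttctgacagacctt
The stretches shown for Lair1, Ly6c1 and Ly6c2 each hold the letters once and that of Ms4a2 does not hold them, whereas 23.2% of the promoter windows of all genes hold GAGGAA on either strand and 2.44% hold GAGGAAGT, which contains it. In Ly6c2 the match is GAGGAAGT. RefSeq gives each Ly6c gene a second start, not shown, whose stretch holds GAGGAAGT 1 time in Ly6c1 and 2 times in Ly6c2. Among the stretches shown, the letters occur for Lair1, with a log2 fold change above 0, and for the Ly6c genes, below 0. Any relation of the letters to the direction was not tested. The longest run shared by the Ly6c1 and Ly6c2 stretches is 20 bases. Promoters were matched for 34 of the 47 tested members, under 80%, so a share over the members would be void and is not given.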

How the data were processed

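Ribo-depleted RNA of 6 MEF cultures was sequenced. Per the labels and the study's methods, the authors used TopHat 2.0.10 (version from the submitters' processing notes), mm10 and Ensembl genes, and the files they deposited give raw read counts and RPKM values (scaled by length and library size) per gene. The counting tool is not given in the sources used here. RPKM served only to compare levels between genes.

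Genes passing filterByExpr (minimum count 10) entered a quasi-likelihood fit in edgeR 4.0.16 (R 4.3.3) with TMM factors, and p-values were adjusted over all of them by Benjamini-Hochberg, with a threshold of 0.05. Each standard error is the log2 fold change over the root of its F statistic. CPM values are TMM-normalized. Replicates are the labels' separate cultures. If they were not separately derived, p-values measure technical spread. The fit was tested on simulated data. Opposite-strand exons came from GENCODE, promoters from RefSeq (74 of 103 members matched). Proteins were not analysed here.

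The members, classes and lists were chosen with earlier results of these data known. Named are members with an unadjusted p-value under 0.05, the 5 most abundant and the extreme members of each class, and genes the name rule centres on. Genes named beyond these were chosen after their values were seen. There were 17 alternatives, including DESeq2 1.42.0. Of these, 3 were added after seeing the data: the Xist status as a covariate, and a second setting each of the exact test and of DESeq2. Both second settings were run before the settings reported above were settled on, with results in view.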

Additional observations from a re-analysis of the deposited data

How the results depend on the processing

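The members called depended on the test, the filter and the cultures. Against 0 higher and 0 lower, edgeR's exact test gave 5 higher and 3 lower (Lair1, Ms4a2, Ms4a6d, Msr1, Ptprc; Cd9, Ly6a, Ly6c1), and the same numbers with dispersions estimated from the design. Over all 9061 genes the exact test called 218 higher and 213 lower, and 219 and 213 with those dispersions. DESeq2 gave 3 and 3 with its default filtering, where Lair1 had no adjusted p-value, and 4 and 3 with filtering set for 0.05, where Lair1 was called. Over all genes DESeq2 called 235 and 206 with the default, and 235 and 208 with filtering set for 0.05. The planned choice was the default, and both second settings were tried with results in view, in an attempt to match other counts of calls obtained over all genes of these data, which neither did. No filter on low counts gave 5 and 2, beside 173 and 152 of all 13482 genes. Library size alone gave 3 and 0, beside 142 and 70 of all 9061 genes. The Xist status as a covariate gave 1 and 0, beside 90 and 88 of all 9061 genes. With each culture left out in turn, 0 to 2 were higher and 0 to 2 were lower: without Nipbl+/- replicate 3, Lair1 and Msr1 were higher and Ly6a and Ly6i lower, and without WT replicate 2, Cd9 was lower. Over all genes, those fits called 34 and 33 of 9225 without Nipbl+/- replicate 3 and 130 and 138 of 9219 without WT replicate 2. Without Nipbl+/- replicate 1, only 1 and 2 of all 9226 genes were called. DESeq2's size factors in edgeR, upper-quartile normalization and a CPM above 1 in 3 cultures gave 0 in both directions. Over all genes these called 94 and 83 of 9061, 81 and 85 of 9061, and 95 and 80 of 8294. The replicate block gave 0 higher and 2 lower members (Cd9 and Ly6a), beside 34 and 52 of all 9061 genes. Cultures with the same number had correlations of their deviations of -0.062, -0.036 and -0.142, and those with different numbers had -0.074 to 0.117. The deviations are taken from a mean of 3 cultures per genotype, which holds such correlations near 0 on average. These values therefore cannot settle whether the numbers pair the cultures.

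Of the 38 members named by the criteria given above, 29 kept their direction in every setting. Ms4a7, named beyond these, was at -0.02 on the log2 scale without Nipbl+/- replicate 2. On the log2 scale, library size alone gave 0.018 for Lgals8, and leaving out each culture in turn gave -0.47 to 0.34 for Cd22, -0.0032 to 0.20 for Cd302, -0.033 to 0.089 for Cd44, -0.091 to 0.98 for Cd72, -0.018 to 0.23 for Cd97, -0.16 to 0.40 for Clec14a, -0.43 to 0.15 for Lgals12, -0.086 to 0.045 for Lgals8 and -0.16 to 0.16 for Lgals9. The cause was not tested. Which of depth and the number of cultures limits a member was not tested.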
